A study of Chlamydomonas reinhardtii with 2 samples.

Results

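The carbon-concentrating mechanism of the green alga Chlamydomonas reinhardtii was represented by 40 nuclear reference genes out of 17611. They were chosen by symbol: carbonic anhydrases (CAH), low-CO2 inducible genes (LCI, including the LCIB family), carrier proteins (CCP), bestrophins (BST), the bicarbonate transporter HLA3, the regulators CCM1 and LCR1, and EPYC1, which is described apart from the other 39. RNA was sequenced from 1 library each of the strains CC5325 and CC125, which the labels both call wild type without naming further alleles. Cultures of both strains were grown at 25 °C on a medium that supplies acetate, under a light of 20 μmol photons per m2 per s. Their CO2 supply is not given in the sources used here. With 1 library per strain there is no replicate check, and strain, culture and library cannot be told apart. The genes MTD1 and FUS1, which lie in the mating type regions, were listed at 0 in both libraries and so give no check of the strain labels.

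The carbon-concentrating mechanism raises the CO2 level around Rubisco, the enzyme that fixes carbon in photosynthesis. Bicarbonate is carried across the plasma membrane, the chloroplast envelope and the thylakoid membrane, and carbonic anhydrases convert it to CO2 in and near the pyrenoid, a compartment of condensed Rubisco inside the chloroplast. Many of its genes are induced when CO2 is scarce, through the zinc-finger regulator CCM1 (also called CIA5), and are low when CO2 is ample. Acetate in the medium is a carbon source that does not pass through Rubisco, and cells that respire it release CO2.

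Depth was shallow over nuclear genes. Aligned bases came to 5.81 Gb in CC5325 and 3.18 Gb in CC125, but nuclear genes held no more than 106556 reads of 150 bases in CC5325 and 32002 in CC125. A single gene with no symbol, Cre08.g374100, took 30731 and 19313 of them. Read numbers below are coverage times gene span over the read length. They are upper limits because spans include introns, and a value under 1 means that less than 1 read length of aligned bases was assigned to the gene. Levels are in TPM, the relative abundance scaled by gene length, or in coverage, the average reads over each base. Both are per length. Of 33 genes for proteasome and RNA polymerase II subunits, which every cell uses, 8 were listed at 0 in CC5325 and 29 in CC125, so a 0 is given only as listed, and no ratio of TPM or coverage is computed against it. Such genes enter only the 2-fold rule, through its pseudocount. Intervals are exact 95% intervals that cover counting error only, and they are the narrowest that the depth allows.

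Most genes of the mechanism stood at or near the floor in both libraries, and so did most nuclear genes. Summed over all 17611 nuclear genes, the level came to 2470 for the CC5325 library and to 1466 for the CC125 one, in TPM. Only 202 nuclear genes of the first library and 109 of the second reached 1 TPM, so a level below 1 TPM was the rule. In CC5325 25 of the 40 genes were listed above 0, where 53.2% of all nuclear genes were, and in CC125 16 of the 40, where 20.9% of nuclear genes were. Both libraries listed 13 of the 40, beside 17.3% of nuclear genes, and neither listed 12, beside 43.3%. Genes with a symbol are detected more often than nuclear genes in general, at 70.0% in CC5325 and 32.6% in CC125. For the 40 genes the share was 62.5% in CC5325 (45.8 to 77.3) and 40.0% in CC125 (24.9 to 56.7). Both intervals take in the share of genes with a symbol. CC5325 alone listed 12 of the genes, beside 35.8% of nuclear genes, and CC125 alone 3, beside 3.51%. The CC5325 library is also the deeper one, and the part of depth in that difference was not tested. Of the genes listed above 0, 6 in CC5325 and 5 in CC125 rested on less than 1 estimated read. So did 2008 of the 9364 nuclear genes listed above 0 in CC5325 and 1436 of the 3672 in CC125. At least 3 estimated reads were reached by 12 of the 40 in CC5325, beside 22.0% of nuclear genes, and by 7 in CC125, beside 3.76%. All 40 genes together held at most 170.4 reads in CC5325 and 105.8 in CC125, which is 0.160% and 0.331% of the nuclear reads. Over the 40 genes the median coverage was 0.0282 reads per base in CC5325 and 0 in CC125, and over all nuclear genes it was 0.0154 and 0.

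**Figure D1:**
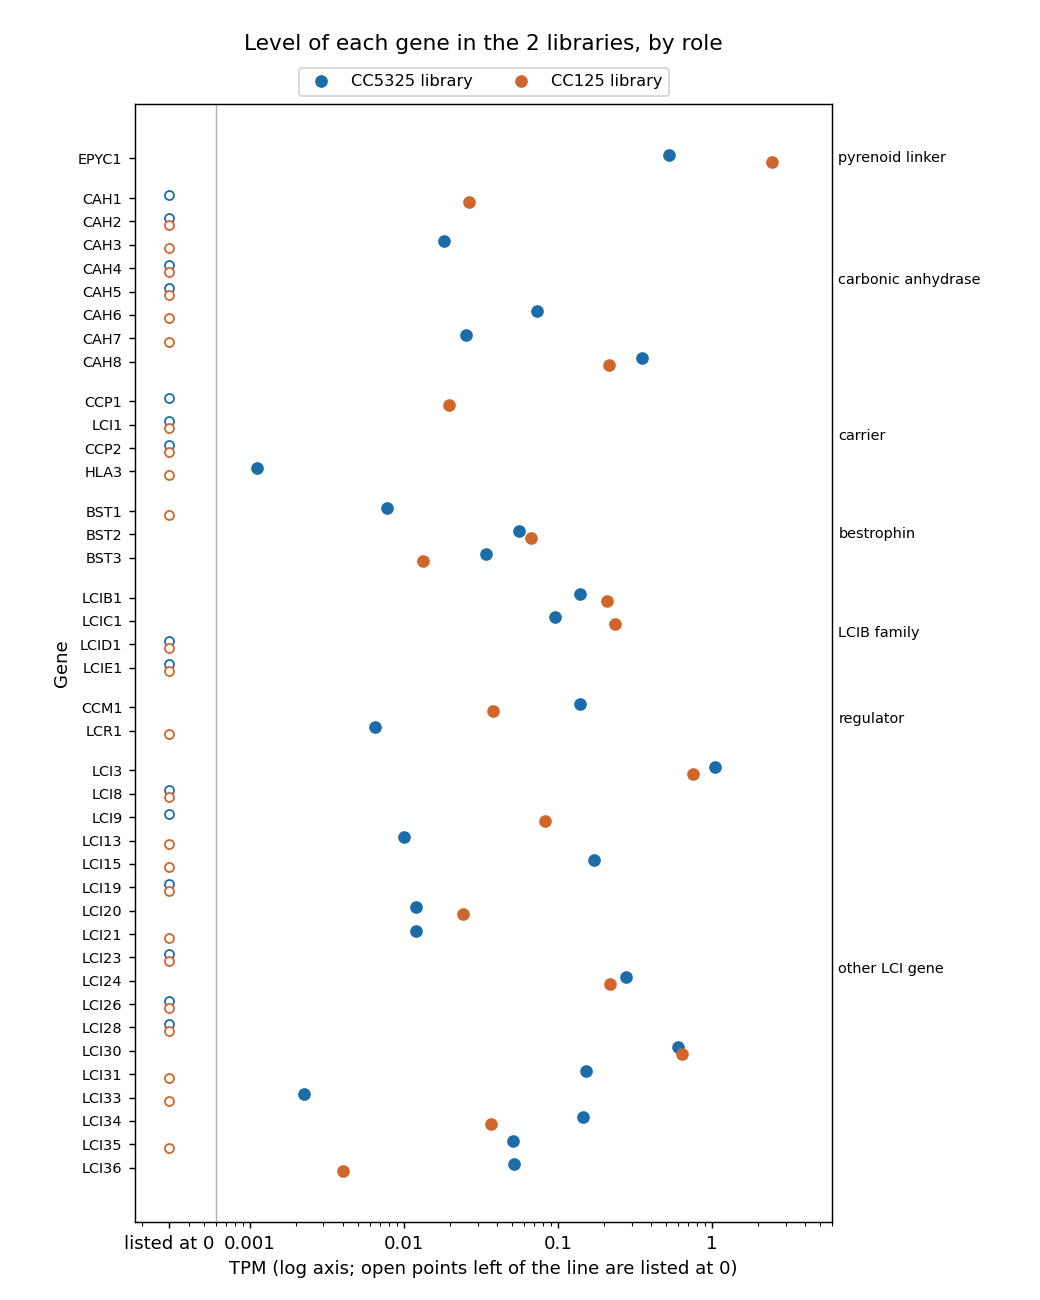
Level in TPM (log axis) of each of the 40 genes in the CC5325 library (blue) and the CC125 library (orange), grouped by role; open points mark genes listed at 0. EPYC1 reached 2.46 TPM in CC125, and LCI3 was the only other gene at 1 TPM or more in either library, at 1.04 TPM in CC5325.

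Of the 13 genes listed above 0 in both libraries, EPYC1 was the only one whose deposited TPM ratio left out equality. Intervals of single-gene ratios between the libraries were computed on that scale alone. Another scale would shift them, so which genes leave out equality depends on the scale. EPYC1 (Cre10.g436550, chromosome 10, 2569255 to 2571940, plus strand, CC-4532 version 6.1 annotation) encodes the intrinsically disordered linker protein that binds Rubisco and condenses it into the pyrenoid matrix. Its coverage was 1.34 reads per base in CC5325 and 2.84 in CC125. These values correspond to at most 24 reads (15.4 to 35.7) and 51 reads (38.0 to 67.1). The shallower library thus held more of them. The level was 0.524 TPM in CC5325 against 2.46 in CC125, and the ratio of CC125 over CC5325 was 4.70 (2.85 to 8.0). EPYC1 was number 291 among nuclear genes by TPM in CC5325 and number 45 in CC125. These ranks cannot be compared between the libraries, because 9364 nuclear genes were above 0 in CC5325 and 3672 in CC125. LCI3, for example, went from number 199 in CC5325 to 134 in CC125 at a lower TPM.

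**Figure D2:**
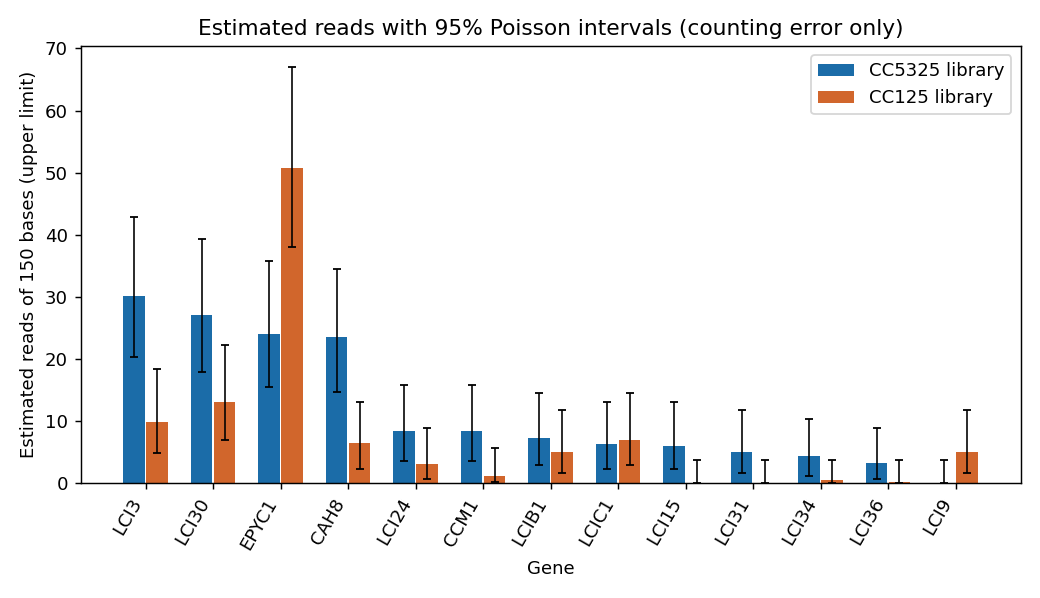
Estimated reads of 150 bases (upper limits) in the CC5325 library (blue bars) and the CC125 library (orange bars) for the 13 genes with at least 3 in 1 library; error bars are 95% Poisson intervals for counting error. EPYC1 is the only gene of the 13 whose CC125 interval (38.0 to 67.1) lies wholly above its CC5325 interval (15.4 to 35.7).

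The size of the EPYC1 difference depended on the scale and its direction did not, on the 9 scales computed. For EPYC1 each scale multiplies the same coverage by 1 constant per library. The scales are therefore not independent checks of the direction. The lowest ratio of CC125 over CC5325 was 2.12, from coverage, which makes no allowance for the smaller CC125 library. The highest was 11.5, from the share of nuclear reads without Cre08.g374100 and without a run of 36 genes of raised CC5325 coverage at the left end of chromosome 1, a scale chosen after seeing the data. The deposited TPM scale is itself shifted: over the 175 reference genes that averaged 1 TPM or more, the median log2 ratio of CC125 over CC5325 was -0.41. With that median set to 0 the EPYC1 ratio was 6.26. Among the 178 nuclear genes with at least 10 estimated reads in both libraries, 2 had a higher TPM ratio of CC125 over CC5325 than EPYC1. The median ratio of these 178 genes was 0.811, with quartiles at 0.432 and 1.4.

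**Figure D3:**
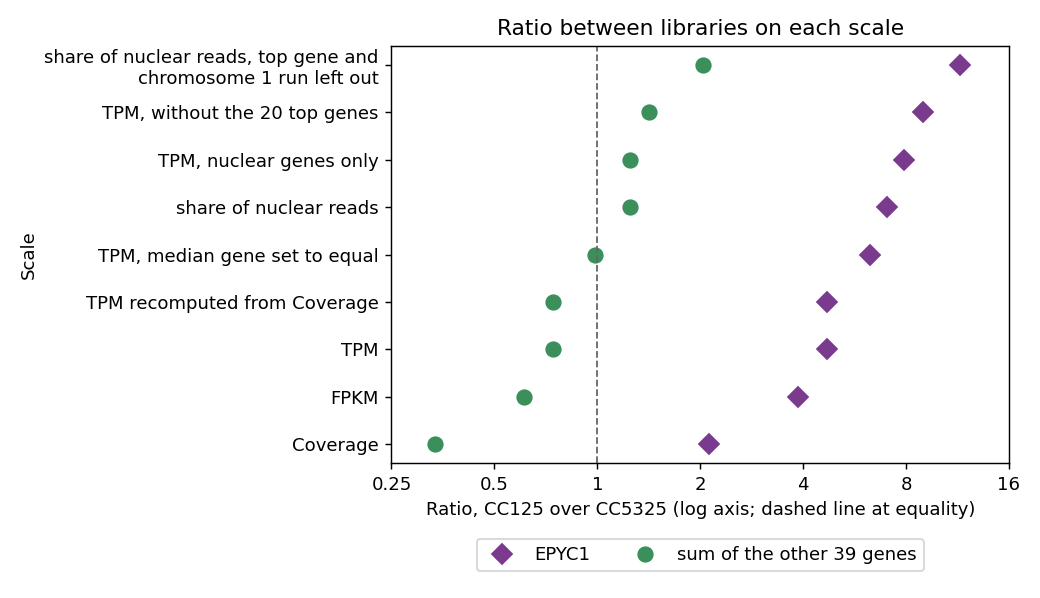
Ratio of CC125 over CC5325 (log axis, dashed line at equality) on 9 scales for EPYC1 (diamonds) and for the sum of the other 39 genes (circles). EPYC1 stays above 1 throughout, from 2.12 to 11.5, while the sum of the others lies on either side of 1, from 0.334 to 2.04. For EPYC1 every scale is the same coverage times 1 constant per library.

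Ratios taken within a library need no scale between the libraries, but they use the same EPYC1 reads and are not further support. EPYC1 held 13.1% of the summed TPM of the 40 genes in CC5325 and 48.9% in CC125. By reads, the ratio of EPYC1 to the other 39 genes together was 5.64 times higher in CC125 (3.06 to 10.5). Against single genes that ratio was 6.51 times higher with LCI3 (2.50 to 16.9), 4.42 times with LCI30 (1.81 to 11.0) and 7.75 times with CAH8 (2.71 to 27.2). Against LCIB1 it was 3.12 times higher (0.718 to 13.03) and against LCIC1 1.92 times (0.450 to 7.07), and both of these intervals take in 1. These are comparisons of 2 libraries and not of strains.

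EPYC1 can also be set beside the protein it binds. RBCS1 and RBCS2 encode the small subunit of Rubisco, are close paralogs between which reads can be split, and together had a coverage of 23.1 reads per base in CC5325 and 9.82 in CC125. EPYC1 coverage was 5.80% of theirs in CC5325 and 28.9% in CC125. By reads, the ratio of EPYC1 to these genes was 5.03 times higher in CC125 (2.90 to 8.95). In bulk RNA, a lower level per cell and fewer cells that express a gene cannot be told apart.

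The loci that the authors' run assembled over EPYC1 differed between the libraries. In CC5325 the locus assembled from the reads had the same ends as the gene, with a coverage of 1.34. In CC125 the assembled locus covered 698 bases, from 1500 to 2197 bases after the 5′ end of the gene span, with a coverage of 8.36, which is at most 38.9 reads beside 50.8 for the whole gene. A gene on the opposite strand, RSGA1, overlaps the last 642 bases of EPYC1. RSGA1 itself had a coverage of 0.0235 in CC5325 and of 0 in CC125. Whether the authors' counting used strand is not given in the sources used here, so reads of overlapping genes on opposite strands cannot be told apart.

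**Figure D4:**
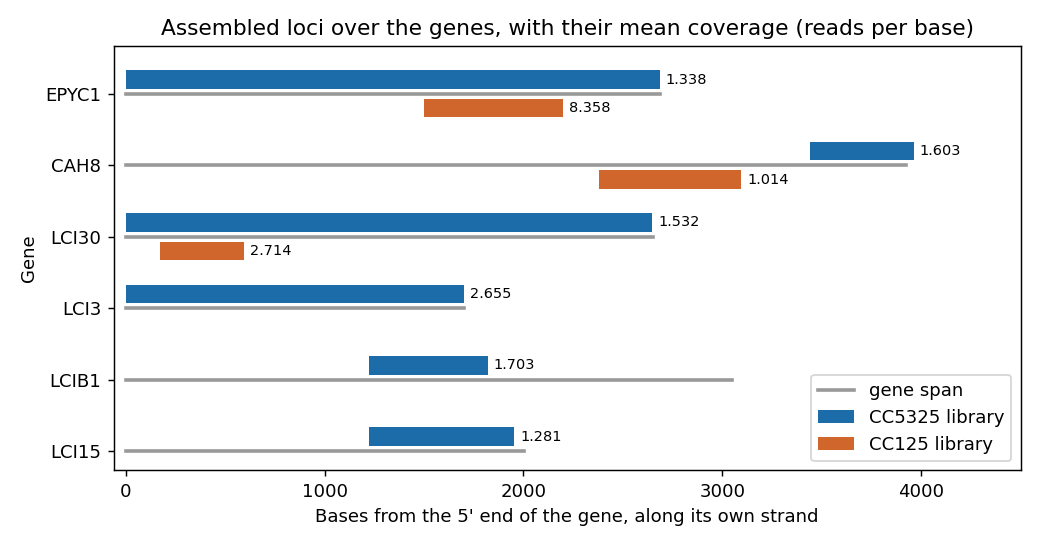
Loci that the authors' run assembled from the reads of CC5325 (blue) and CC125 (orange) over 6 genes of the mechanism, drawn in bases from the 5′ end of each gene span (grey), with the mean coverage of each locus beside it. Over EPYC1 the CC125 locus takes 698 bases at a coverage of 8.36, and the CC5325 locus takes the whole span at 1.34.

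Only nuclear genes with a symbol were searched for those most like EPYC1. The 3 with the smallest distance on log2(TPM + 1) values over the 2 libraries were taken. They were ATPD1, the delta subunit of the plastid ATP synthase, at 0.709 TPM in CC5325 against 1.79 in CC125 (distance 0.355), CP12, a regulatory protein of the Calvin cycle, at 0.945 and 1.86 TPM (0.447), and the cytosolic ribosomal protein gene RPL34 at 1.096 and 1.545 TPM (0.639). With 2 libraries this likeness rests on 2 values per gene.

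Of the carbonic anhydrases, which interconvert CO2 and bicarbonate, CAH8 alone had more than 3 estimated reads. CAH8 (Cre09.g405750, chromosome 9) stood at 0.352 TPM in CC5325, from at most 23.5 reads, and at 0.213 TPM in CC125, from at most 6.43. The ratio of CC125 over CC5325 was 0.607 (0.193 to 1.46), an interval that takes in equality. The assembled loci over CAH8 did not overlap: in CC5325 the locus ran from 3440 bases after the 5′ end to beyond the end of the gene span, and in CC125 from 2380 to 3095 bases.

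CAH3, the thylakoid lumen enzyme that supplies CO2 to Rubisco in the pyrenoid, stood at 0.0181 TPM in CC5325, from at most 1.23 reads, and at 0 in CC125. CAH6 stood at 0.0729 TPM and CAH7 at 0.0253 TPM in CC5325, from at most 1.53 and 2.48 reads, and both were listed at 0 in CC125. CAH1, the periplasmic enzyme that is among the most strongly CO2-responsive genes of this alga, was listed at 0 in CC5325 and stood at 0.0266 TPM in CC125, from less than 1 read (0.872). CAH2, its close paralog, and CAH4 and CAH5, the nearly identical mitochondrial enzymes, were listed at 0 in both libraries. Listed at 0 in both were 3 of the 8 carbonic anhydrase genes, beside 43.3% of all nuclear genes, and 3 of the 8 were above 0 in the deeper library alone, beside 35.8%, so neither count sets them apart.

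The 4 genes grouped as carriers were almost without reads. HLA3, an ABC transporter of bicarbonate at the plasma membrane, stood at 0.00111 TPM in CC5325, from 0.288 of a read over a span of 15316 bases, and at 0 in CC125. LCI1, a plasma membrane carbon transporter, was listed at 0 in both. CCP1, a carrier protein, was listed at 0 in CC5325 and stood at 0.0196 TPM in CC125, from 0.556 of a read, and its near-identical copy CCP2 was listed at 0 in both. Reads can be split between these copies. No library thus held a whole read of any of the 4 carrier genes. At least 1 read was held by 7356 of the 17611 nuclear genes in CC5325 and by 2236 in CC125. Less than 1 read was therefore the more common state in both libraries.

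The bestrophins BST1, BST2 and BST3, anion channels of the thylakoid membrane that pass bicarbonate towards CAH3, lie near each other on chromosome 16. BST2 had 0.0559 TPM in CC5325 against 0.0665 in CC125, on no more than 2.95 and 1.58 reads. BST3 stood at 0.0339 and 0.0134 TPM, from at most 2.58 and 0.461 reads. BST1 stood at 0.00771 TPM in CC5325, from 0.424 of a read, and at 0 in CC125. All 3 were above 0 in CC5325, beside 53.2% of nuclear genes, and 2 in CC125, beside 20.9%. None reached 3 reads in either library, a minimum that 22.0% of nuclear genes reached in CC5325 and 3.76% in CC125.

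Of the 4 genes of the LCIB family, 2 were above 0 in each library, beside 53.2% of nuclear genes in CC5325 and 20.9% in CC125. The other 2 were listed at 0 in both, beside 43.3%. With 4 genes, these counts do not set the family apart. LCIB1 and LCIC1 encode the proteins of a complex that lies around the pyrenoid and recaptures leaking CO2. LCIB1 (Cre10.g452800, chromosome 10) had 0.139 TPM in CC5325 against 0.209 in CC125, on no more than 7.19 and 4.88 reads. LCIC1 (Cre06.g307500, chromosome 6) had 0.0961 and 0.235 TPM, from at most 6.22 and 6.86 reads. The TPM ratios of CC125 over CC5325 were 1.505 (0.396 to 5.80) for LCIB1 and 2.44 (0.744 to 9.32) for LCIC1. Neither was beyond counting error on that scale. LCID1 and LCIE1, their relatives, were listed at 0 in both libraries.

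Of the regulators, CCM1 (Cre02.g096300, chromosome 2) had 0.139 TPM in CC5325 against 0.0376 in CC125. Those values rest on at most 8.29 and 1.01 reads, and the ratio of CC125 over CC5325 was 0.271 with an interval of 0.00624 to 2.07. LCR1, a Myb-type transcription factor that acts below CCM1 and activates CAH1, stood at 0.00652 TPM in CC5325, from 0.469 of a read, and at 0 in CC125. CCM1 was thus listed above 0 in both libraries, in CC125 on no more than 1.01 reads. Such a depth cannot show a difference of that size.

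Beside EPYC1, the highest levels were those of LCI3 and LCI30, for which no role is given here. LCI3 (Cre09.g402219, chromosome 9, 4733389 to 4735088) had 1.04 TPM in CC5325 against 0.751 in CC125, on no more than 30.1 and 9.80 reads. LCI30 (Cre12.g507300, chromosome 12, 2484080 to 2486729) stood at 0.60 and 0.637 TPM, from at most 27.02 and 12.96 reads. Their ratios of CC125 over CC5325, 0.722 (0.322 to 1.55) and 1.06 (0.506 to 2.14), take in equality. Over LCI30 the CC5325 locus spanned the whole gene and the CC125 locus only bases 172 to 593 from its 5′ end.

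LCI24 had 0.277 TPM in CC5325 against 0.217 in CC125, on no more than 8.31 and 2.94 reads. LCI34 stood at 0.146 and 0.0367 TPM, LCI36 at 0.0519 and 0.00399 TPM and LCI20 at 0.0120 and 0.0242 TPM, each from at most 4.28 reads in either library. Both LCI15 and LCI31, at 0.172 and 0.152 TPM in CC5325 from at most 5.85 and 4.98 reads, were listed at 0 in CC125. LCI31 overlaps FAP172, on the opposite strand, by 518 bases, and FAP172 had a coverage of 0.257 in CC5325. The lower LCI genes seen in CC5325 alone were LCI35, LCI21, LCI13 and LCI33, between 0.0512 and 0.00226 TPM.

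LCI9, a protein found at the starch plates around the pyrenoid, was the one gene with at least 3 reads in CC125 that was listed at 0 in CC5325. It stood at 0.0823 TPM in CC125, from at most 4.87 reads over a span of 7707 bases. Its last 23 bases overlap Cre09.g394436, a gene on the opposite strand with a coverage of 0.720 in CC5325 and 0.158 in CC125. LCI8, LCI19, LCI23, LCI26 and LCI28 were listed at 0 in both libraries.

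The order of levels was examined for genes with at least 1 read after rounding, 21 in CC5325 and 13 in CC125. In CC125 EPYC1 stood above LCI3 beyond counting error (TPM ratio 3.28, interval 1.62 to 7.13), and none of the other neighbouring pairs among the 13 differed. In CC5325 the order was LCI3, LCI30, EPYC1, CAH8 and LCI24, and none of the 20 neighbouring pairs differed, LCI3 and LCI30 included (interval 0.995 to 3.03).

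The sum of the other 39 genes showed no direction that held across scales. It was 3.47 TPM in CC5325 against 2.57 in CC125, a ratio of CC125 over CC5325 of 0.741 (0.533 to 1.02). With the median of reference genes set to 0 it was 0.987, and as a share of nuclear reads it was 1.25. On log2(TPM + 1), 13 genes of the mechanism had at least 3 estimated reads in 1 library. Of these EPYC1 was at least 2-fold higher in CC125, as were 0.177% of the 3946 nuclear genes that met the same minimum, and none was 2-fold higher in CC5325, where 2.15% of nuclear genes were. The pseudocount of 1 TPM holds nearly all genes below 1 TPM within 2-fold, so these counts say little of the other 12. With a pseudocount of 0.1 TPM 1 of the 13 was 2-fold higher in CC125 (1.37% of nuclear genes) and 2 in CC5325 (15.5%), and with 5 TPM none was higher in either (0.076% and 0.177%). With no pseudocount, 10 of the 13 were above 0 in both libraries. On FPKM 2 of these 10 were 2-fold higher in CC125, beside 5.22% of nuclear genes, and 4 in CC5325, beside 61.0%. On coverage, which is unscaled for the deeper CC5325 library, 1 was higher in CC125, beside 1.89%, and 7 in CC5325, beside 83.0%. Of the 12 genes other than EPYC1, 9 were above 0 in both libraries, with a median log2(TPM + 1) ratio of CC125 over CC5325 of -0.069. The 1957 nuclear genes of the 3946 that were above 0 in both had a median of -0.044. The pseudocount of 1 TPM presses both medians towards 0 for genes at such levels, so no likeness is read from them.

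Of the genes with little or no signal, 6 are neighbours. CCP2, LCID1, CAH2, CAH1, LCIE1 and CCP1 lie within 77.7 kb of chromosome 4 (2607837 to 2685518), with 5 other genes between them. In CC5325 all 6 genes of the mechanism were listed at 0 and all 5 genes between them were above 0. Coverages of the 5 were 0.0496 to 0.296 reads per base, and their estimated reads ran from at most 0.976 to 7.57. The highest coverage, that of Cre04.g222850, rested on the fewest reads (0.976). Cre04.g222850 also overlaps LCID1 by 26 bases on the same strand. In CC125 CAH1 and CCP1 were above 0, each from less than 1 read, and 2 of the 5 others were. Of all nuclear genes 53.2% were above 0 in CC5325 and 20.9% in CC125. The split between the 6 genes and the 5 others was thus seen in CC5325 alone, and it was not tested. LCIE1 and CCP1 overlap by 848 bases on opposite strands, so the fraction of a read given to CCP1 in CC125 could belong to either.

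**Figure D5:**
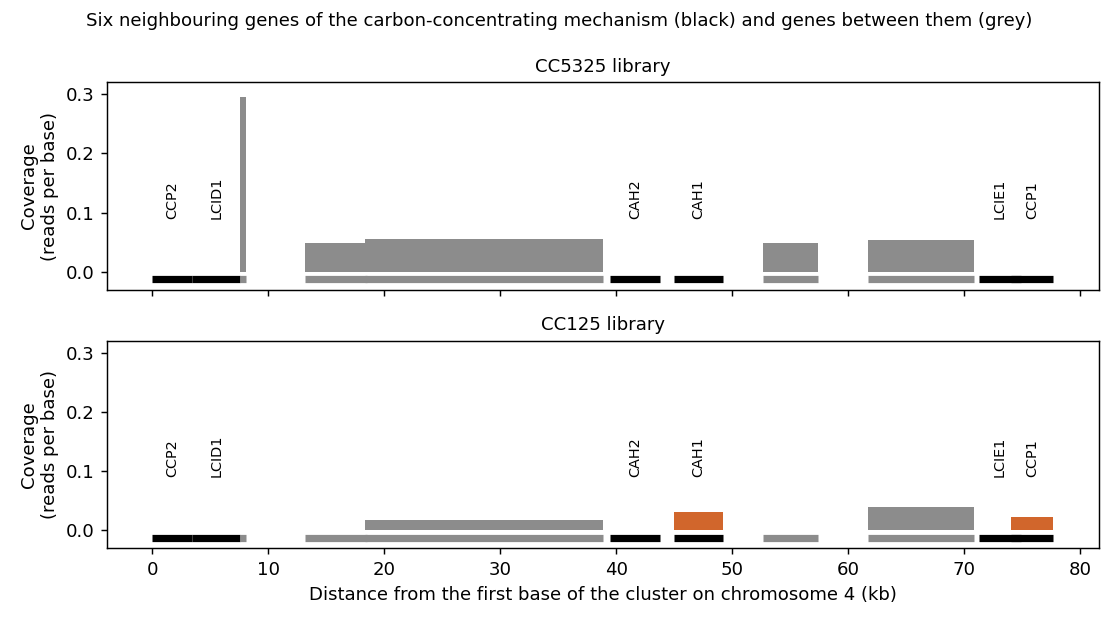
Coverage in reads per base of the 11 genes in a 77.7 kb stretch of chromosome 4, by distance from its first base in kb, in the CC5325 library (top) and the CC125 library (bottom); black bars below 0 mark the 6 genes of the mechanism, grey ones the 5 genes between them. In CC5325 the grey genes reach 0.0496 to 0.296, the highest of them from at most 0.976 of a read, and the 6 named genes have no coverage. In CC125 2 of the 6 named genes and 2 of the 5 grey genes are above 0.

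Other genes that serve the mechanism or the photorespiratory pathway, which recycles the product of Rubisco's reaction with oxygen, were looked up by 45 symbols, of which 28 matched. Above 0 were 26 of the 28 in CC5325 and 14 in CC125, beside 70.0% and 32.6% of all nuclear genes with a symbol. All 7 matched genes of the pyrenoid and Rubisco group and 14 of 15 photorespiratory genes were above 0 in CC5325, and 4 and 7 of them in CC125. After RBCS2 (8.20 TPM in CC5325 against 6.76 in CC125, where coverage gives 7.49 and 6.12 TPM) and RBCS1 (1.55 and 2.41 TPM), the highest by mean TPM of both libraries were CAS1, AGT1, RCA1 and CSP41A. CAS1, a calcium-binding thylakoid protein that sustains expression of carbon-concentrating genes at low CO2, stood at 0.725 TPM in CC5325, where its coverage gives 0.448 TPM, and at 0 in CC125. AGT1, an aminotransferase, stood at 0.343 and 0.225 TPM, Rubisco activase RCA1 at 0.256 and 0.281 TPM, and CSP41A at 0.193 and 0.316 TPM. The order differed between the libraries: in CC5325 SHMT2, at 0.328 TPM, stood above RCA1 and CSP41A, and in CC125 it was listed at 0.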

How the data were processed

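RNA was sequenced from 1 library of CC5325 and 1 of CC125. Per the labels' protocols, ribosomal RNA was depleted from total RNA and libraries were read as paired ends of 150 bases; polyA RNA is what their molecule field gives. The authors' tools, per the submitters' processing notes, included HISAT2 2.2.1, StringTie 2.2.3, Trimmomatic and FastQC 0.12.1. No settings are stated. Coverage, a deposited signal, is the average of reads over the bases of a gene, unscaled for depth. The deposited FPKM values are scaled for gene length and library size. The deposited TPM values are scaled to the loci assembled in each library, with the reference genes on top. Gene symbols and coordinates are those of the files, whose identifiers carry the CC-4532 version 6.1 suffix.

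From these, reads were estimated as coverage times gene span over 150 bases. Poisson intervals, ratio intervals (exact binomial, conditional on the summed reads) and conditional odds ratio intervals used rounded reads. They treat mates as independent, so they are too narrow. The ratio interval was tested on simulated data. The level is TPM, with a pseudocount of 1 for the 2-fold rule. There is no test between strains. The members, gene lists and alternatives were chosen with earlier results of these data known. Every member above 0 in either library is named with values or a range. Also named are the 6 other pathway genes of highest mean TPM and the 3 genes with a symbol nearest to EPYC1. Intervals came from scipy 1.17.1 and numpy 2.4.6, tables from pandas 2.3.3 and figures from matplotlib 3.10.9, under Python 3.11.15.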

Additional observations from a re-analysis of the deposited data

How the results depend on the processing

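Detection did not change with assembled loci added. With TPM or FPKM in place of coverage it could not change, because for these genes both are coverage times a constant. At a minimum of 3 estimated reads the count was 12 genes in CC5325 and 7 in CC125. The ratio of EPYC1, CC125 over CC5325, was 2.12 from coverage, 8.98 without the 20 most abundant genes and 11.5 on the scale chosen after seeing the data, which leaves out Cre08.g374100 and the chromosome 1 run. Its log2 ratio of 2.23 became 1.18 with a pseudocount of 1 TPM and 0.43 with 5 TPM. The ratio of the summed level of the other 39 genes was 0.334 from coverage and turned above 1 as a share of nuclear reads (1.25), without organelle genes (1.25), without the 20 most abundant genes (1.42) and on the scale chosen after seeing the data (2.04). With fragments of 2 reads as the unit, the 146.5 and 55.0 reads of these genes became 73.2 in CC5325 and 27.5 in CC125. Genes at least 2-fold higher in CC125 numbered 0 with a pseudocount of 5 TPM (0.076% of nuclear genes) and 2 from FPKM (5.22%). Those 2-fold higher in CC5325 numbered 2 of 13 with a pseudocount of 0.1 TPM, 7 of 10 from coverage and 4 of 10 from FPKM, where 15.5%, 83.0% and 61.0% of nuclear genes under the same conditions were. The cause of these changes was not tested, beyond what each scale does by construction. No paired analysis was possible because each strain has 1 library. Leaving out a library was not run for the same reason. At this depth a gene below a few reads cannot be compared between the libraries.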

Other observations

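LCIA, the bicarbonate channel of the chloroplast envelope, carries the symbol NAR1B in the files and so fell outside the choice by symbol. It was looked up after the values of the other genes were seen. NAR1B (Cre06.g309000, chromosome 6, 8483968 to 8487060) was listed at 0 in both libraries, as were NAR1A, NAR1D and NAR1F of the same family of anion transporters. NAR1C was the family's highest member, with 0.0944 TPM in CC5325 against 0.0662 in CC125, on no more than 13.4 and 4.24 reads. NAR1E stood at 0.00846 and 0.0151 TPM, from less than 1 read in each.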
